A study of Egretta garzetta and Nycticorax nycticorax with 12 samples.

Results

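In the little egret, *Egretta garzetta*, 34 of 16585 annotated genes (0.205%) had more transcript in the olfactory epithelium (OE) of every nestling than in that of every adult by a fixed margin. The values are TPM, transcripts per 1000000 annotated transcripts, which the authors computed for each bird. A gene was taken when its lowest nestling reached at least 1 TPM and at least 1.5 times its highest adult, after 0.1 TPM was added to both. The genes were thus selected on the TPM values of these same 6 birds, so their levels and stage differences are given as a description, with no test. Genes in the study's tables of olfactory receptor (OR) and vision-related genes were to be left out, as were genes averaging 10 TPM or more and having a 0 in any bird, but none of either kind met the 2 numeric conditions. Of the genes whose lowest nestling was at least 1 TPM, the 34 make up 0.304%. With the roles of nestlings and adults exchanged, the same rule took 6 genes (0.0362% of 16585). The contrast of 34 and 6 depended on the scale of the birds and on a single adult. The 2 counts were 27 and 8 after each bird was divided by the median ratio of its genes, and 49 and 26 without adult 5.

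The study sequenced OE tissue of wild birds of *E. garzetta* and of the black-crowned night heron, and the values here are those of the 6 little egrets, each a library of its own. The nestlings, birds 1, 2 and 3, each from a different nest, were under 15 cm long and their olfactory bulbs had not developed. The adults, birds 4, 5 and 6, were over 50 cm long, in breeding plumage and with olfactory bulbs of normal size. They were caught at a location other than that of the nestlings, so that stage and location cannot be told apart, and the labels give no treatment for either group.

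The OE is the sheet of nasal tissue in which odours are sensed. It holds olfactory neurons that carry the ORs, supporting cells around them, glands below, and basal cells that divide and replace the neurons through life. In a young bird this tissue is still growing together with the bones, vessels and glands of the nose, so that a nestling sample can differ from an adult one in the mix of cells as well as in the RNA of each cell. In whole tissue, fewer cells of a type and less RNA per cell cannot be told apart.

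The identifiers of the 34 genes are not paired with a gene name in the files or in the study's tables, and 0 of 34 were found in the RefSeq gene table of the species. The genes are therefore described by their position, structure and levels, and 2 of them by identifier, and nothing is said of their function. Positions are on the scaffolds of the *E. garzetta* assembly that the files use, whose build the file headers do not name, counted from 1. A gene model covers only the coding exons, and the lengths given are coding lengths.

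Between 10996511 and 16326012 read equivalents (coverage times coding length over the read length of 150 bases) lay on annotated transcripts in a bird. The 10 most abundant genes took between 7.66% of the TPM in adult 6 and 16.7% in adult 5. The birds differed in overall scale, from 0.843 in adult 5 to 1.11 in nestling 3 by the median ratio of their genes. Over all 14960 genes tested, the median difference was 0.14 on the log2(TPM + 0.1) scale in favour of nestlings, and 0.016 after the birds were rescaled by that ratio. Limma called 0 of the 14960 genes at an adjusted p of 0.05 (0.0%), among them none of the 34. At an unadjusted p of 0.05, limma had 1.71% of the genes higher in nestlings and 0.615% higher in adults, but 1.43% and 1.33% after rescaling, and 1.17% and 1.01% without adult 5. Of the 34 genes, 33 were at that level, which follows from their choice. Every nestling lay above every adult for 5.64% of all genes tested and every adult above every nestling for 1.89%, but for 4.06% and 3.95% after rescaling.

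The library of adult 5 stood apart from those of the other adults in named genes picked out after their values were seen. COL1A1, a collagen of bone and connective tissue, had 67385 TPM in adult 5, the highest level of any gene in the 6 birds, beside 32674 and 9708 TPM in adults 4 and 6 and 22070 to 41989 TPM in nestlings. SOX2, a transcription factor of basal and supporting cells of the OE, had 141, 11.5 and 133 TPM in adults 4, 5 and 6. AQP5, a water channel of glands, had 200.1, 25.3 and 250.4 TPM in these adults. PAX6 and GRHL2, transcription factors of epithelia, were at 0.332 and 8.25 TPM in adult 5 and at 6.94 to 8.91 and 21.6 to 33.3 TPM in the other adults. In all 4 of the latter genes adult 5 was the lowest of the 6 birds. Adult 6 stood apart in other named genes, also picked out after their values were seen. It was the lowest of the 6 birds in COL1A1, COL5A1 and ADAMTS18. COL5A1 had 180, 237 and 39.3 TPM and ADAMTS18 had 41.5, 33.7 and 2.83 TPM in adults 4, 5 and 6. Of 16 genes of the primary cilium, adult 5 was the lowest adult in 15. Over the 11669 genes averaging 1 TPM or more, this share was 53.1%. At that level it was also the lowest adult in 13 of 19 neural and epithelial transcription factors, the list that holds SOX2, PAX6 and GRHL2. In KLF4 and MAB21L1 of that list adult 5 was instead the highest adult. It was the lowest in 7 of 10 genes of chromatin and DNA synthesis and 4 of 6 of retinoid metabolism and receptors. Of photoreceptor markers it was 6 of 10, and of lens markers 3 of 5. It was so in only 8 of 26 genes of Wnt, BMP and TGF-beta signalling. Of growth factor receptors and axon guidance it was 3 of 12, and of the extracellular matrix 2 of 9. Over all vision-related genes of the study's table at that level, adult 5 was the lowest adult in 104 of 204. The part of this library's cell content in the differences was not tested, and the summary differences of the 34 genes are given with and without it.

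The 34 genes spanned a wide range of levels in nestlings, with group means from 2.04 to 882 TPM and a median of 18.3 TPM. In adults their means ran from 0.409 to 163 TPM with a median of 5.17 TPM. Most of the genes were of moderate abundance, since 20 of the 34 had a nestling mean of at least 10 TPM. For comparison, the 11669 genes whose mean over the 6 birds reached 1 TPM had a median of 26.3 TPM in nestlings and 23.9 TPM in adults. The nestling mean was between 1.68 and 5.94 times the adult mean, with a median of 2.79 times. It was at least 2 times the adult mean in 29 of the 34 genes and at least 3 times in 14. Without adult 5 the nestling mean was 1.67 to 4.97 times the adult mean, with a median of 2.53 times, and it reached 2 times in 25 genes and 3 times in 7. On the log2(TPM + 0.1) scale the median difference of the 34 genes was 1.48, against 0.14 over all genes tested, and 1.28 without adult 5, against 0.039 over all genes.

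**Figure D1:**
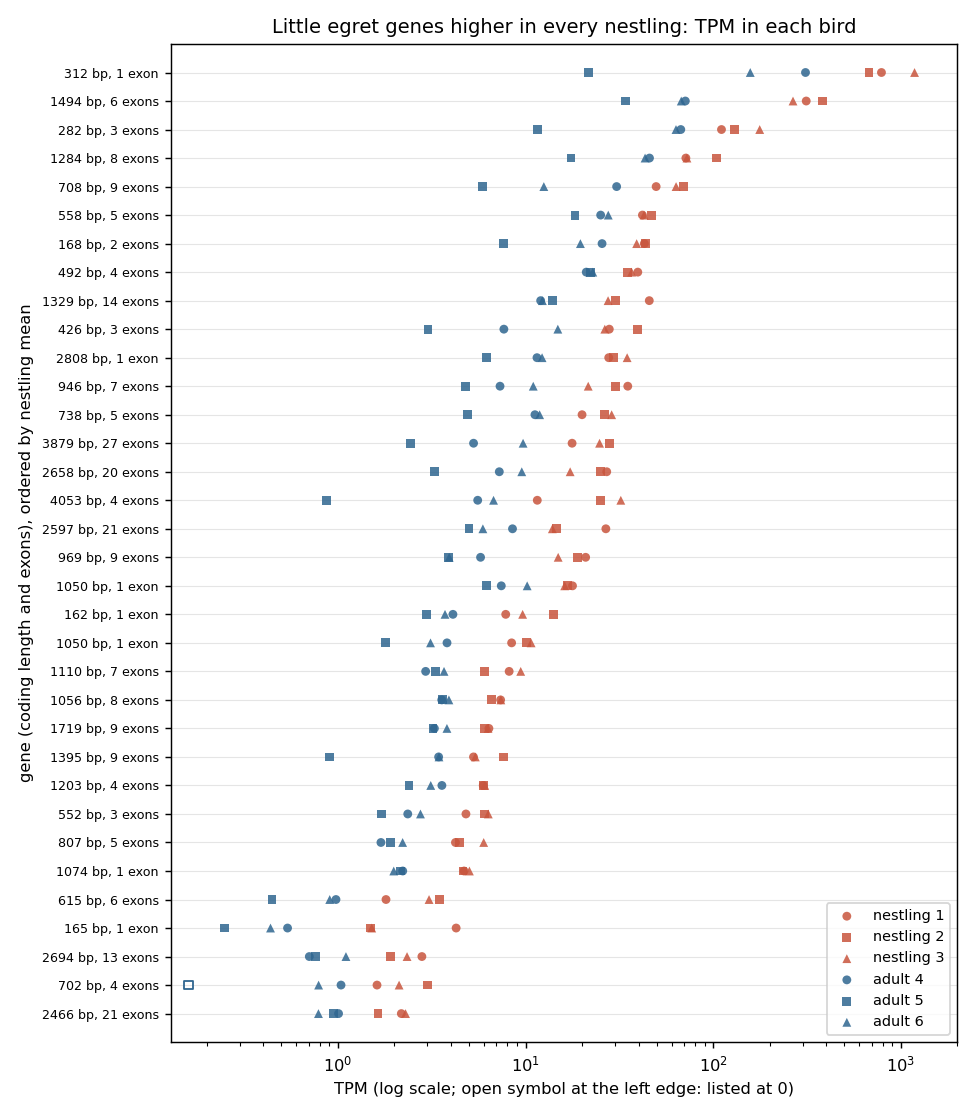
TPM of each of the 34 genes (rows, labelled by coding length and number of exons, ordered by nestling mean) in the 3 nestlings (red) and the 3 adults (blue) on a log axis. In every row the red symbols lie to the right of the blue ones, as the rule requires, and the blue square of adult 5 is the leftmost symbol in 26 of the 34 rows.

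The gene with the highest nestling level was Ega_R009549, a single-exon gene of 312 bp on scaffold 393, from 990391 to 990702. It had 787, 676 and 1182 TPM in nestlings 1, 2 and 3, and 310, 21.7 and 157 TPM in adults 4, 5 and 6. The nestlings lay within a factor of 2 of each other, while the adults spread more than 10-fold, with adult 5 far below the other adults. Nestlings averaged 882 ± 266 TPM (SD, n = 3), which was 5.41 times the adult average of 163 ± 144 TPM (SD, n = 3). Whether this gene shared reads with other places in the genome was not tested, so its values are uncertain in that respect. The 34 genes together summed to 1811, 1852 and 2221 TPM in nestlings 1, 2 and 3 and 721, 220 and 558 TPM in adults 4, 5 and 6. Ega_R009549 was the largest single part of these sums in every bird except adult 5. The median of the 34 genes was 17.8, 17.8 and 15.5 TPM in nestlings 1, 2 and 3 and 5.66, 3.29 and 6.34 TPM in adults 4, 5 and 6.

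The gene with the widest gap between the groups was Ega_R004585, a gene of 6 exons and 1494 bp on scaffold 215, from 5392130 to 5394125. It had 313, 381 and 266 TPM in nestlings 1, 2 and 3, and 71.0, 34.02 and 67.5 TPM in adults 4, 5 and 6. Its lowest nestling, bird 3, was 3.74 times its highest adult, bird 4, after 0.1 TPM was added to both, and no other of the 34 genes reached 3 times. Nestlings averaged 320 ± 57.9 TPM (SD, n = 3), against an adult average of 57.5 ± 20.4 TPM (SD, n = 3). It was also the second most abundant of the 34 genes in nestlings, and between 686 and 6521 read equivalents lay on it in a bird.

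Next in abundance were a gene of 3 exons and 282 bp on scaffold 586 (56822 to 58653) and a gene of 8 exons and 1284 bp on scaffold 39 (4695909 to 4702241). The first had 111, 130 and 177 TPM in nestlings 1, 2 and 3 and 67.2, 11.6 and 63.3 TPM in adults 4, 5 and 6. The second had 71.5, 104 and 72.4 TPM in the nestlings and 45.8, 17.5 and 43.3 TPM in the adults. In both genes adults 4 and 6 were close together and adult 5 was lower by more than 2 times. The gene after these, of 9 exons and 708 bp on scaffold 351 (31494 to 64565), had 49.6, 69.4 and 63.4 TPM in the nestlings and 30.6, 5.88 and 12.5 TPM in the adults, where adult 4 stood above the other adults.

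Next in the width of the gap were a gene of 9 exons and 969 bp on scaffold 511 (360920 to 368354), a single-exon gene of 165 bp on scaffold 17 (189065 to 189229) and a single-exon gene of 2808 bp on scaffold 213 (2237804 to 2240611). The gene on scaffold 511 had 20.9, 18.8 and 14.9 TPM in nestlings 1, 2 and 3 and 5.76, 3.87 and 3.92 TPM in adults 4, 5 and 6. The gene on scaffold 213 had 27.8, 29.4 and 34.8 TPM in the nestlings and 11.5, 6.201 and 12.3 TPM in the adults. In both the nestlings were within 1.5 times of each other, and the adults were within 1.5 times on scaffold 511 and within 2 times on scaffold 213. The gene on scaffold 17 had 4.27, 1.5 and 1.52 TPM in the nestlings and 0.540, 0.249 and 0.438 TPM in the adults. It rested on few reads, with 2.83 read equivalents in nestling 2 and 1.15 in adult 4, and the counting intervals of these birds overlapped.

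The 2 conditions of the rule cut through a continuous range of genes. Just inside the 1.5 times were a gene of 5 exons on scaffold 43 (1427199 to 1445004) at 1.518 times, one of 9 exons on scaffold 158 (1339474 to 1348449) at 1.512 times and one of 4 exons on scaffold 333 (1005078 to 1008246) at 1.506 times. The gene on scaffold 43 had 42.0, 47.1 and 42.8 TPM in nestlings 1, 2 and 3 and 25.1, 18.3 and 27.6 TPM in adults 4, 5 and 6. The gene on scaffold 158 had 5.28, 7.62 and 5.40 TPM in the nestlings and 3.44, 0.908 and 3.46 TPM in the adults. All 3 were thus in a position where a small change in 1 bird would have left them out. The gene on scaffold 333 had 1.62, 3.02 and 2.12 TPM in the nestlings, 1.04 and 0.790 TPM in adults 4 and 6, and was listed at 0 in adult 5, where 3 read equivalents would have come to 0.317 TPM (counting error only). It was the only one of the 34 genes listed at 0 in any bird. Just outside were genes on scaffold 69 (3220662 to 3225991), scaffold 5 (1236722 to 1238918) and scaffold 51 (2180981 to 2189551), at 1.496, 1.478 and 1.474 times. The first of these was an abundant gene of 15 exons, with 273, 231 and 148 TPM in the nestlings and 93.7, 82.5 and 98.9 TPM in the adults. Another 33 genes reached 1.5 times with a lowest nestling under 1 TPM, the highest of them at 0.791 TPM.

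**Figure D2:**
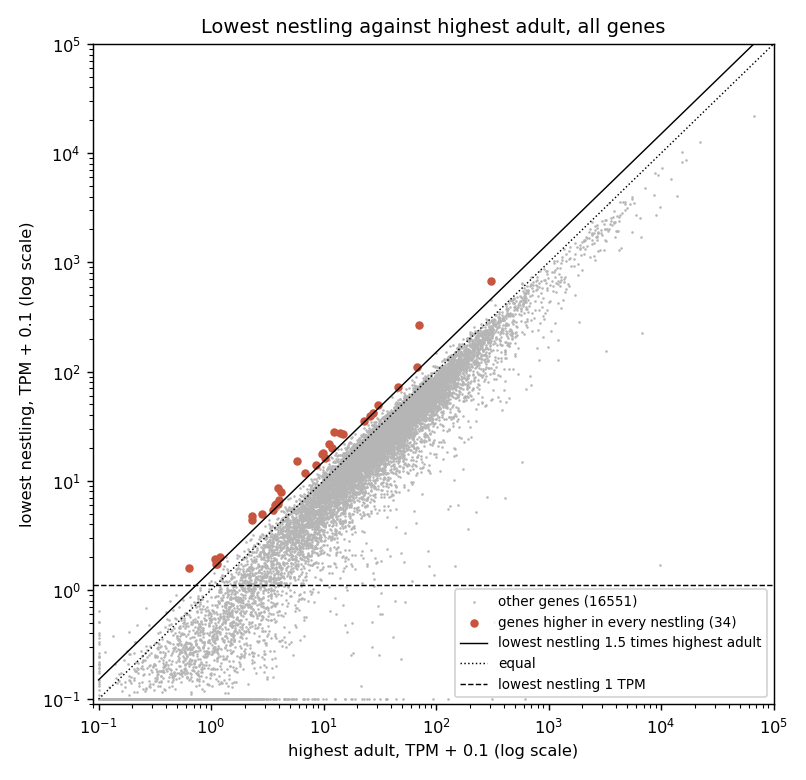
The lowest nestling TPM of each gene against its highest adult TPM, with 0.1 added, on log axes, for the 34 genes (red) and the other genes (grey). The red points lie above the line of 1.5 times and above the dashed line of 1 TPM, many of them close to the former, and Ega_R004585 stands farthest from it.

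The birds within a stage differed among the 34 genes in different ways. Nestlings 1, 2 and 3 were the highest bird for 10, 11 and 13 of the 34 genes (29.4%, 32.4% and 38.2%). These shares were near those of the highest nestling among the 11669 genes averaging 1 TPM or more (26.3%, 35.3% and 38.4%). The highest nestling was at least 2 times the lowest in only 2 genes. The adults were less even. Adult 5 was the lowest adult for 26 of the 34 genes (76.5%) and adults 4 and 6 for 6 and 2, beside 53.1% for adult 5 among the 11669 genes averaging 1 TPM or more. In 13 of the 34 genes (38.2%) adult 5 was at less than 0.5 times the lower of adults 4 and 6, beside 11.9% of the 11170 genes whose lowest nestling was at least 1 TPM. A rule on the highest adult disfavours genes that are high in adult 5, so these shares follow in part from the choice. SOX2, AQP5, PAX6 and GRHL2, also low in adult 5, were picked out after their values were seen. A link between them and the 34 genes was not tested. The highest adult, which set the margin, was bird 4 in 16 genes (47.1%), bird 6 in 17 (50%) and bird 5 in 1 (2.94%). Among the 11669 genes these shares were 34.1%, 49.1% and 16.9%.

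The spread between the highest and the lowest nestling had a median of 1.44 times over the 34 genes and one of 1.45 times over the genes whose lowest nestling was at least 1 TPM and whose adults were all above 0. Between the adults it was 2.03 times in the 34 genes and 1.75 times in those others. After Ega_R009549, the widest spread among adults of the genes above 0 in every bird was in a gene of 4 exons and 4053 bp on scaffold 369 (21666 to 26968), chosen here after its values were seen. It had 11.6, 24.99 and 32.2 TPM in nestlings 1, 2 and 3 and 5.56, 0.867 and 6.76 TPM in adults 4, 5 and 6. Here the nestlings spread almost 3-fold as well, and nestling 1 was nearer to adults 4 and 6 than to nestling 3.

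At the other end were 4 genes with narrow groups, picked out after their values were seen, in which the highest bird of a stage was less than 1.2 times the lowest in nestlings and in adults. They were 11.8% of the 34, beside 2.29% of the 11170 genes whose lowest nestling was at least 1 TPM. A rule on the lowest nestling and the highest adult favours narrow groups, so this share follows in part from the choice. A single-exon gene of 1074 bp on scaffold 370 (1476187 to 1477260) had 4.70, 4.65 and 5.02 TPM in nestlings 1, 2 and 3 and 2.22, 2.16 and 1.99 TPM in adults 4, 5 and 6. A gene of 4 exons on scaffold 640 (632078 to 636887) had 39.6, 35.0 and 36.8 TPM in the nestlings and 21.1, 22.3 and 22.8 TPM in the adults. In both, adult 5 stood with the other adults before rescaling. Divided by the scale of each bird, 0.843 in adult 5, adult 5 was the highest adult in both. The adults of both genes then spread over more than 1.2 times. A gene of 8 exons on scaffold 51 (2360973 to 2371066) had 7.37, 6.57 and 7.39 TPM in the nestlings and 3.58, 3.61 and 3.91 TPM in the adults. A gene of 9 exons on scaffold 441 (464917 to 478005) had 6.38, 6.02 and 6.32 TPM in the nestlings and 3.27, 3.21 and 3.81 TPM in the adults. Divided by the scale of each bird, these genes on scaffolds 51 and 441 were also highest in adult 5 among the adults. The nestlings of the gene on scaffold 51 then spread over more than 1.2 times. After that division the genes on scaffolds 640, 51 and 441 no longer met the margin of the rule. The counting intervals of the lowest nestling and the highest adult overlapped in all 4 genes. The 4 genes had nestling means of 1.68 to 2.26 times the adult mean, below the median of 2.79 times over the 34 genes.

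The stage difference was looked at in each exon, with the coverage of an exon scaled to 10000000 read equivalents per bird. The 34 genes have 243 exons, all with coverage in at least 1 bird. The nestling mean was above the adult mean in 240 of them (98.8%), beside 60.7% of the 114221 exons of all genes averaging 1 TPM or more. Every nestling lay above every adult in 185 exons (76.1%), beside 6.62% over all those exons. These shares follow in part from the choice of the genes, and they also depend on how many reads lay on each exon. All exons of a gene had this pattern in 20 of the 34 genes, of which 7 have 1 exon, beside 0.651% of all genes averaging 1 TPM or more.

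The genes with many exons differed in how many of their exons had the pattern, and also in depth. Those given here beside Ega_R004585 were chosen after their values were seen. In a gene of 27 exons and 3879 bp on scaffold 593 (590661 to 622211), the largest number of exons among the 34, every nestling lay above every adult in 26 exons, and the differences of the exons ran from 0.97 to 2.57 on the log2 scale with 0.1 added. In the 14-exon gene on scaffold 316 (378223 to 386782) this was so in 13 exons, and in the 20-exon gene on scaffold 245 (858272 to 863347) in 17. It was so in only 4 exons of the 13-exon gene on scaffold 56 (9354234 to 9383619), although the nestling mean was the higher in all 13. That gene had 24.5 to 35.4 read equivalents in an adult over all its exons, beside 128 to 448 for the 27-exon gene. All 6 exons of Ega_R004585 had every nestling above every adult, with differences of 2.24 to 2.57. The 8-exon gene on scaffold 51 (2360973 to 2371066) was an exception. Only 3 of its exons had all nestlings above all adults, its exons had a median difference of 0.29 with a range from -0.20 to 1.41, and 2 of the 3 exons with a higher adult mean were among them. Its difference as a gene, 0.92 on the log2(TPM + 0.1) scale, thus came from some of its exons. The other such exon belonged to the 21-exon gene on scaffold 526 (1641601 to 1671909), in which 7 exons had every nestling above every adult and which had the lowest nestling mean of the 34, 2.04 TPM. On this gene lay 23.1 to 32.0 read equivalents in an adult. With depths so unlike, the extent of the difference along a gene cannot be compared between these genes. The part of counting error in it was not tested.

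**Figure D3:**
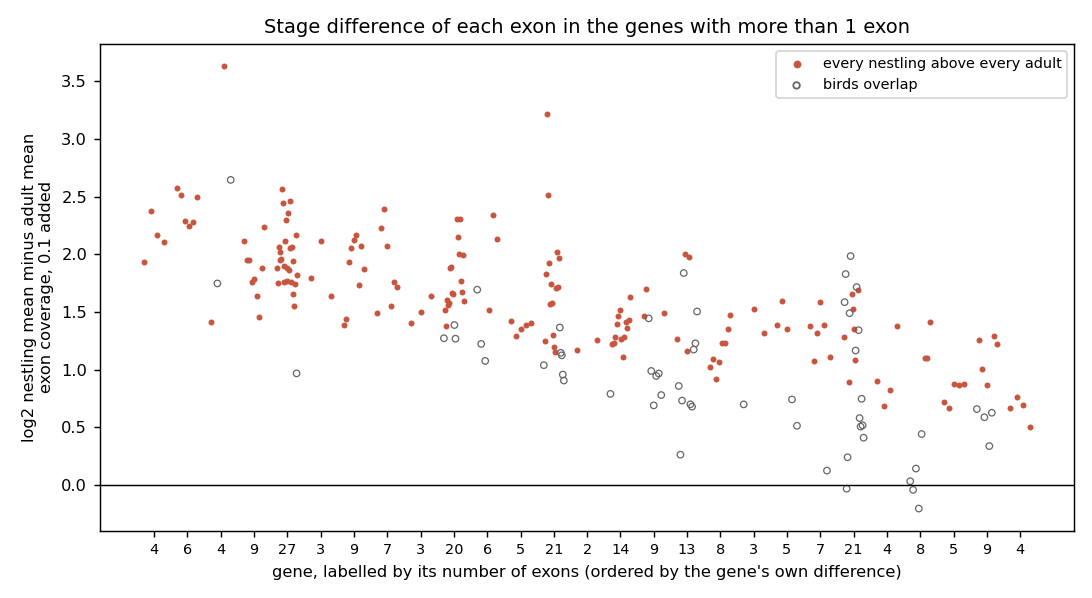
Difference between nestling and adult mean coverage of each exon, on a log2 scale with 0.1 added, in the 27 genes with more than 1 exon (columns, labelled by number of exons and ordered by the difference of the gene; exons from first to last within a column). Red points are exons with every nestling above every adult, and 3 of the 236 exons drawn lie at or below the line at 0.

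The structure of the 34 genes varied widely. Their coding length ran from 162 to 4053 bp with a median of 1050 bp, beside a median of 1143 bp over the 11669 genes averaging 1 TPM or more. They had 1 to 27 exons with a median of 5, beside a median of 7, and the median span on the scaffold was 5627 bp, beside 10327 bp. Genes of a single exon made up 7 of the 34 (20.6%), beside 9.39% of those 11669 genes, and genes of more than 10 exons 6 of the 34 (17.6%), beside 33.9%. With so few genes these shares are descriptions only. The coding length was a multiple of 3 in 32 of the 34 genes, beside 92.6% of all genes, and 0 of the 34 overlapped another gene model, beside 7.63% of all genes.

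Levels and differences overlapped between genes of few and of many exons. The 7 single-exon genes had nestling means of 2.43 to 882 TPM and were 2.13 to 5.94 times as high in nestlings as in adults. The 6 genes of more than 10 exons had nestling means of 2.04 to 34.4 TPM and differed by 2.22 to 4.04 times. Single-exon genes were 5 of the 7 genes whose lowest nestling was at least 2 times the highest adult. The shortest were a gene of 162 bp on scaffold 688 (100017 to 100178) and the gene of 165 bp on scaffold 17. The former had 7.84, 14.1 and 9.65 TPM in nestlings 1, 2 and 3 and 4.11, 2.97 and 3.73 TPM in adults 4, 5 and 6, which rested on 15.7 read equivalents in nestling 1 and 6.49 in adult 5. The counting intervals of its lowest nestling and highest adult overlapped as well.

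**Figure D4:**
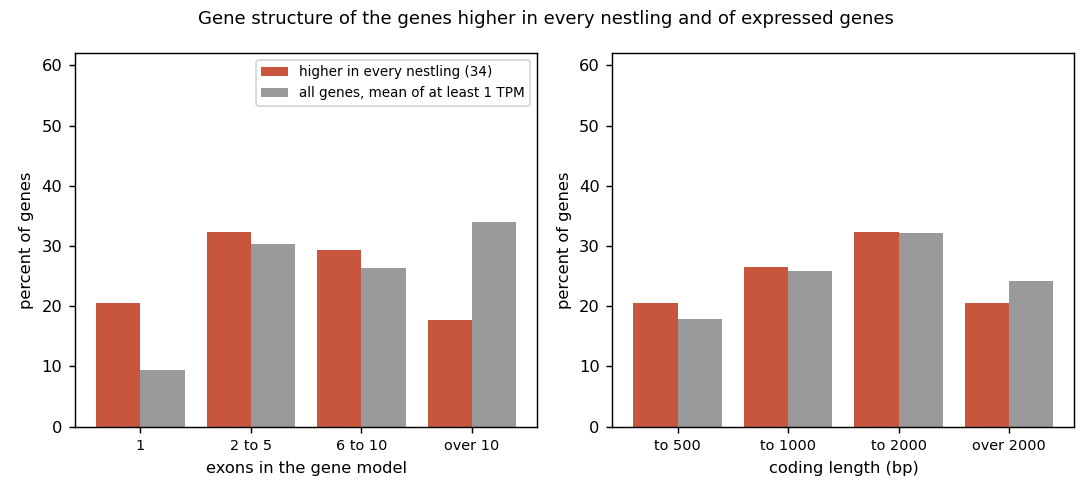
Percent of genes by number of exons (left) and by coding length in bp (right), for the 34 genes (red) and for the 11669 genes averaging 1 TPM or more (grey). The red bar is higher than the grey one for 1 exon and lower for more than 10 exons, while the bars for coding length lie close together.

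The 34 genes lay on 31 of the 1015 scaffolds that carry genes, with 28 of them alone on their scaffold and 2 each on scaffolds 32, 51 and 96. No scaffold had more than 2. On scaffolds 32 and 96 the 2 genes were direct neighbours, so that 4 of the 34 genes (11.8%) were next to another of the 34, beside 0.368% of all genes with one of the 34 next to them. Again 4 genes were found when up to 1 other gene was allowed in between and when start sites up to 50 kb apart were asked for. These are 2 pairs and no larger cluster was present.

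The pair on scaffold 32 are a gene of 7 exons and 946 bp (1700406 to 1706356) and a gene of 3 exons and 426 bp (1718771 to 1720210) on the same strand, with 12414 bases between them. The first had 35.1, 30.2 and 21.6 TPM in nestlings 1, 2 and 3 and 7.31, 4.81 and 10.996 TPM in adults 4, 5 and 6. The second had 27.9, 39.5 and 26.4 TPM in the nestlings and 7.67, 3.02 and 14.9 TPM in the adults. The 2 genes were at like levels, with the same order of the adults, 5 below 4 below 6. The coding length of the first is not a multiple of 3, so that its model may not be a full reading frame.

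The pair on scaffold 96 are single-exon genes of the same coding length, 1050 bp (2252725 to 2253774 and 2267903 to 2268952), on the same strand with 14128 bases between them. The first had 8.43, 10.1 and 10.7 TPM in nestlings 1, 2 and 3 and 3.82, 1.79 and 3.12 TPM in adults 4, 5 and 6. The second had 17.8, 16.8 and 16.2 TPM in the nestlings and 7.43, 6.22 and 10.2 TPM in the adults. Both were lowest in adult 5, and the second was the higher of the pair in every bird. Neighbouring genes of equal length can be copies of each other that share reads, and since no genome sequence was at hand their likeness was not tested, so the separate values of these 2 genes are uncertain.

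Of the genes next to the 34, 57 were outside the 34, which by the rule excludes any with the same margin. Of these 55 were tested, and their median difference was 0.25 on the log2(TPM + 0.1) scale, beside 0.14 over all genes tested. Every nestling was above every adult in 5 of them (9.09%) and every adult above every nestling in 0, beside 5.64% and 1.89% of all genes tested. The 2 genes of scaffold 51, at 2018540 to 2023800 and at 2360973 to 2371066, were not neighbours, and the first, of 7 exons, had 8.18, 6.06 and 9.43 TPM in nestlings 1, 2 and 3 and 2.94, 3.31 and 3.68 TPM in adults 4, 5 and 6.

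The depth behind the values differed by gene. A median of 108 read equivalents lay on a gene of the 34 in a bird, with a range from 0 to 6521. In every nestling at least 50 read equivalents lay on 27 of the 34 genes, while 1 gene had fewer than 10 in some nestling and 4 had fewer than 10 in some adult. The counting error of the lowest nestling and of the highest adult was worked out as an exact Poisson interval of 95% on read pairs, taken as read equivalents over 2. These intervals were apart in 18 of the 34 genes. In the other 16 they overlapped, which does not by itself mean that the order of the 2 birds was unresolved, and the difference was not tested. The intervals cover counting error only and not the spread between birds.

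The study's table of vision-related genes gives symbols to 255 identifiers in the files, and 0 of 255 met the numeric conditions of the rule. Over all genes the rule took 0.205%, and at so small a share 0 of 255 says nothing about these genes as a set. Every nestling was above every adult in 13 of the 249 tested (5.22%) and every adult above every nestling in 6 (2.41%), beside 5.64% and 1.89% of all genes tested, and limma called 0 of 249. The one nearest to the rule was RRM1, the large subunit of ribonucleotide reductase, which makes the building blocks of DNA. It had 26.0, 28.4 and 26.0 TPM in nestlings 1, 2 and 3 and 21.0, 20.1 and 21.5 TPM in adults 4, 5 and 6, and its lowest nestling was 1.21 times its highest adult. Its groups did not overlap before rescaling, but its difference of 0.36 on the log2(TPM + 0.1) scale (standard error 0.22) did not pass limma's test (adjusted p = 0.965). Divided by the scale of each bird, RRM1 in nestling 3 (scale 1.11) fell below RRM1 in adult 5 (scale 0.843). After it came PROX1, a transcription factor (1.13 times), RXRA, a retinoid receptor (1.12 times), COL4A1, a collagen of basement membranes (1.11 times), and HDAC1, a histone deacetylase (1.10 times), none past limma's test (adjusted p = 0.965 for each).

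Lists of these named genes, drawn up with earlier results of the data known, could not hold any of the 34, since the rule leaves these genes out. Of 10 genes of chromatin and DNA synthesis, every nestling was above every adult in 2 (RRM1 and HDAC1) and the median difference was 0.31. Of 26 neural and epithelial transcription factors it was 3 (BCL11B, PRDM1 and PROX1), with a median of 0.38. Of 16 genes of the primary cilium it was 1 (TULP3), with a median of 0.39, and of 26 genes of Wnt, BMP and TGF-beta signalling it was 1 (BMP7), with 2 genes in the other direction (BMPR1B and SMAD1) and a median of 0.14. Of 10 genes of the extracellular matrix it was 1 (COL4A1), with 1 in the other direction (IMPG2) and a median of 0.11. Of 7 genes of retinoid metabolism and receptors it was 1 (RXRA), with 1 in the other direction (STRA6) and a median of 0.23, and of 12 genes of growth factor receptors and axon guidance it was 1 (SEMA5B), with a median of 0.23. These counts of 1 to 3 genes a list were made before rescaling and are descriptions only. They stand beside 5.64% and 1.89% of all genes tested in the 2 directions, or 4.06% and 3.95% after rescaling. Of the genes named as higher in nestlings, HDAC1, PRDM1 and PROX1 kept the pattern after rescaling. RRM1, BCL11B, TULP3, BMP7, COL4A1, RXRA and SEMA5B did not. Limma called 0 genes of these lists, and the median over all genes tested was 0.14.

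Markers of cells that an OE sample could also hold were summed in each bird. The photoreceptor markers summed to 151 to 249 TPM in nestlings and 212 to 414 TPM in adults over 29 genes, of which CNGA1, GNAT1, PDC and PRPH2 were at 0 in every bird and 18 were under 1 TPM in every bird. Most of this sum was GNGT2, a G protein subunit of cones, and without it the sums were 40.5 to 74.2 TPM in nestlings and 48.6 to 74.2 TPM in adults. ARR3, the cone arrestin, had 8.45, 6.32 and 4.69 TPM in nestlings 1, 2 and 3 and 9.36, 9.05 and 9.05 TPM in adults 4, 5 and 6. Every adult was above every nestling in ARR3 before rescaling but not after it, and ARR3 did not pass limma's test (adjusted p = 0.965). The lens markers summed to 18.5 to 34.9 TPM in nestlings and 12.7 to 43.7 TPM in adults over 9 genes. The OR genes, which mark olfactory neurons, summed to 1.38 to 47.8 TPM in nestlings and 1.52 to 31.0 TPM in adults, and 119 of them passed the filter of the test. In each of these lists the ranges of the summed levels overlapped between the stages, and their part in the differences was not tested. SOX2 and PAX6, which mark basal and supporting cells, were not listed as a marker set, and their values in nestlings 1, 2 and 3 were 101, 163 and 143 TPM for SOX2 and 3.46, 7.63 and 9.42 TPM for PAX6.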

How the data were processed

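Libraries of 150 bp read pairs were made from the OE of 6 little egrets, 3 per stage. Reads had been trimmed by the authors (Trimmomatic) and aligned to the genome with HISAT2 (version not given in the sources used here). StringTie 2.1.4 was then applied to single birds by the authors, limited to the annotation, which has 1 transcript per gene. The TPM values that the authors deposited sum to about 1000000 per bird. FPKM values deposited from the same runs served as an alternative, and the deposited coverage of transcripts and exons, not normalized for depth, gave read equivalents. Files of the night heron were not used here.

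The genes and lists described were chosen with earlier results of these data known. The stage contrast was fitted to log2(TPM + 0.1) in limma 3.58.1 (R 4.3.3; lmFit, then eBayes with trend), keeping genes that averaged 0.02 TPM or more, and p-values were adjusted by Benjamini-Hochberg. The fit was tested on simulated data first. Differences on this scale understate those of low genes. Exon coverage was scaled to 10000000 read equivalents per bird. Genes described singly are the highest in nestlings, the one with the widest gap, the next 3 of each order, the neighbouring pairs and the 3 nearest the limit of 1.5 times. Any other gene described by position was chosen after its values were seen. Python 3.11.15 was used, with pandas 2.3.3, numpy 2.4.6, matplotlib 3.10.9 and scipy 1.17.1.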

Additional observations from a re-analysis of the deposited data

How the results depend on the processing

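The number of genes taken by the rule, 34, was 26 to 39 with a pseudocount of 0.01 or 1 TPM, a lowest nestling of 0.5 or 5 TPM, FPKM, or rescaling by the median ratio, and 24 of the 27 taken after rescaling were among the 34. It moved to 100 at a limit midway between 1 and 1.5 times, 7 at 2 times and 67 with no floor on the lowest nestling. With a bird left out it lay between 49 (without adult 5) and 251 (without adult 4), and was 115, 65 and 67 without nestlings 1, 2 and 3 and 124 without adult 6. A rule over fewer birds is easier to meet, and the 34 were taken each time. The mirrored rule took 14 to 91 genes with a bird left out (26 without adult 5), 8 after rescaling and 32 with no floor. Limma called 1 gene with no filter on low values and 1 without nestling 1, neither of them among the 34, and 0 otherwise, so that the count ranged from 0 to 1 with each bird left out. The median difference of the 34 genes, 1.48, was 1.29 to 1.49 under the other scales and 1.28 to 1.68 when single birds were dropped. Without adult 5, an alternative chosen after seeing the data, the nestling mean was at least 3 times the adult mean in 7 genes in place of 14, and at least 2 times in 25 in place of 29. At a limit of 2 times, 71.4% of the 7 genes had a single exon and 0% were next to another of them, while after rescaling 29.6% had a single exon and 22.2% were next to another. The median coding length was 807 to 1053 bp. No paired analysis was possible because nestlings and adults are different birds, and no nestling is matched with an adult. Positions, lengths and exons rest on the annotation alone.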
